A study of Mus musculus with 3 samples.

Results

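Of the 38625 in vivo NFI sites deposited for chromosomes 1 to 19, 1121 had 5 or more tags in the wild-type ChIP, 0 tags in the NFI-C knock-out ChIP and 0 tags in the input within 300 bp around the site centre. A tag is a uniquely mapped read, placed at its 5′ end and counted at most once per position and strand. These sites were chosen by their tag counts, so the 3 counts describe them and are no result. The members were 2.90% of all deposited sites, 25.5% of the 4404 sites with 5 or more wild-type tags, and 53.0% of the 2116 sites that had 5 or more wild-type tags and 0 input tags. The other 995 of these 2116 sites, with 1 or more knock-out tags, are used below as the nearest comparison and are called sites with knock-out tags.

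The tags came from primary fibroblasts of C57BL/6 mouse embryos of 14.5 days at passage 6 to 7. The 3 libraries were an NFI ChIP of wild-type cells, an NFI ChIP of NFI-C knock-out cells, and input DNA of wild-type cells, which was not immunoprecipitated. Each condition had 1 library, so the values describe these libraries, no test across samples was possible, and the intervals given (95%, exact) cover counting error only. GEO's title calls one ChIP sample knock-out although its description says wild-type, and here the title decides. The Nfic gene, which the knock-out targets, held 50 wild-type, 66 knock-out and 151 input tags, but the study's knock-out came from insertional mutagenesis, which can leave a gene's DNA in place, so these tags do not check the label.

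NFI proteins are transcription factors made by the paralogous genes Nfia, Nfib, Nfic and Nfix. They bind DNA as dimers at a palindrome of a pair of TTGGCA half-sites, and they take part in transcription and replication. The antibody recognises the NFI group of proteins and not NFI-C alone, so NFI-A, NFI-B and NFI-X could still be precipitated from the knock-out cells.

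The palindrome searched was TTGGCANNNTGCCAA, read on both strands, where up to 2 of its 12 fixed positions could differ. No member held it without mismatch, and 6 members held it with 1 mismatch. They are shown because they are the members with the closest match to the sequence NFI is known to bind. Each is the mm9 forward strand, capitals mark the bases that match the fixed positions, and the spacer, the mismatch and the surroundings are in lower case.

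Fam189a1 intron, chr7:71983722-71983766, + strand: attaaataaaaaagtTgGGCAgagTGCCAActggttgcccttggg
Muc5ac intron, chr7:149004408-149004452, + strand: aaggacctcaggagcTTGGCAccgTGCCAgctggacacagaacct
Near Sh3tc1, chr5:36079974-36080018, + strand: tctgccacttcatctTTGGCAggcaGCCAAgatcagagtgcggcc
Near Atp6v0d2, chr4:19859355-19859399, + strand: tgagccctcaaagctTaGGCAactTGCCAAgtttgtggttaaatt
Near Tmem66, chr8:35262279-35262323, + strand: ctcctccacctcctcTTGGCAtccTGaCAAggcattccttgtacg
Frmd4a intron, chr2:4133192-4133236, + strand: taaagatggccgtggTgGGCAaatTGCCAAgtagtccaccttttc

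Counted from 1 at the 5′ end of the palindrome as printed, the mismatch was T2G in the Fam189a1 intron and in the Frmd4a intron, A15G in the Muc5ac intron, T10A near Sh3tc1, T2A near Atp6v0d2 and C12A near Tmem66. The base before the substitution number is that of the palindrome and the base after it that of the site. For comparison, 3 sites with knock-out tags and 1 mismatch are shown, those with the most wild-type tags. Their mismatches were A6C, T10G and T1G in the order printed.

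Nearest TSS Dsel, chr1:115194591-115194635, + strand: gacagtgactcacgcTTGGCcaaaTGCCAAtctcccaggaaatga
Nearest TSS Celf2, chr2:7168073-7168117, + strand: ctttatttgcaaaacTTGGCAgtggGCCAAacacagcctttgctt
Sfswap intron, chr5:130024174-130024218, + strand: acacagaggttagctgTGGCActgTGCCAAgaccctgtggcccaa

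The site with nearest TSS Dsel had 9 wild-type and 4 knock-out tags, that with nearest TSS Celf2 9 and 7, and that in Sfswap 7 and 3. All 3 had 0 input tags. Both kinds of site therefore included near-complete palindromes, but in different shares, which are given further on.

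Windows of 300 bp are shown for the member with the most wild-type tags and for those upstream of the Hjurp and Eif3f TSS, with the deposited interval of 16 bp in capitals.

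Fam189a1 window, chr7:71983552-71983851, + strand: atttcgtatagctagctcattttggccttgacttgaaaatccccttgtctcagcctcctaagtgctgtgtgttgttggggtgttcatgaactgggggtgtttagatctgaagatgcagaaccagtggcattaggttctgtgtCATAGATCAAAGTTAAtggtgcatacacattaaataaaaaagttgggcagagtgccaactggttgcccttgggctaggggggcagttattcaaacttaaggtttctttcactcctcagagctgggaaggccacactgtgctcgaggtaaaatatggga
Hjurp window, chr1:90168180-90168479, + strand: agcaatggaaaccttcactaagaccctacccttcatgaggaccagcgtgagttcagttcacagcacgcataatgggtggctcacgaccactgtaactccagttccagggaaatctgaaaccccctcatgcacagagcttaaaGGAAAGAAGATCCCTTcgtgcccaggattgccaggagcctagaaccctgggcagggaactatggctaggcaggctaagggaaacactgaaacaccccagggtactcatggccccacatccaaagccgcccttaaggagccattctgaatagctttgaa
Eif3f window, chr7:116077493-116077792, + strand: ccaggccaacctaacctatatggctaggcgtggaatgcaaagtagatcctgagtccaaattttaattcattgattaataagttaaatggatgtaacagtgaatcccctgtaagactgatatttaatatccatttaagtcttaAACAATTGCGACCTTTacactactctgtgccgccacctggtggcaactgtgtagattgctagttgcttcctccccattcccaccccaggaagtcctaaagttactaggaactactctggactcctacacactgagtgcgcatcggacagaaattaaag

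The Fam189a1 window held the palindrome with T2G to the right of the capitals, 43 bp from the site centre. The Hjurp and Eif3f windows held no match with at most 2 mismatches and no TTGGCA on either strand.

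The member counts sat close to the threshold. Of the 1121 members, 920 had exactly 5 wild-type tags, 156 had 6, 38 had 7, 5 had 8, 1 had 9 and 1 had 10. Just outside the rule lay 3062 sites with 4 wild-type tags and 0 in both other libraries, and 512 sites with 5 or more wild-type tags and a single knock-out tag. The deposited list was called by the authors in the wild-type ChIP with a threshold of 5 tags and with tags shifted by 75 bp. A site in it can hold fewer than 5 tags as counted here, and the rule returned 2000 sites with tags shifted by 75 bp and 10876 with every read counted. The site centres follow single tags. A forward tag lay exactly 75 bp before the centre at 57.7% of the deposited sites, and a reverse tag exactly 71 bp after it at 42.9%.

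With 1 library of 2978316 tags for the knock-out ChIP, a count of 0 is frequent. The genome average on chromosomes 1 to 19 was 0.373 knock-out tags per 300 bp, which leaves 68.8% of windows empty if tags fall independently. At that rate 1457 of the 2116 sites would have had 0 knock-out tags. At the knock-out rate measured 1 to 5 kb from each site, 1381 (65.3%) would have had none, and windows of 300 bp placed 2 kb to either side of the sites were empty for 1426 (67.4%). The 1121 zeros counted at the sites were fewer than each of these numbers. Sites with 5 or more wild-type tags and 0 input tags thus held 0 knock-out tags less often than their surroundings did, with a mean of 1.00 knock-out tags.

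A second reading of depth starts from the wild-type count. If each site had kept its wild-type tag rate, scaled to the knock-out library, 16.6 of the 2116 sites (0.783%) would have had 0 knock-out tags. The sites were selected for a high wild-type count, which overstates their rate, so this expectation was bound to lie below the counted zeros and is given as a description. A site with 5 wild-type tags would then be given 4.67 knock-out tags. If all 2116 sites had shared their common mean, 776 (36.7%) would have had none. If tags fall independently, a count of 0 allows up to 3 tags, which corresponds to 3.21 tags in the wild-type library. Where facing tags, described below, share a template, more than 3 tags are allowed, and how many was not tested. A single member with 5 tags thus cannot be told apart from a site with a lower but present knock-out signal. For the rule as a whole, both the knock-out ChIP and the input had to be empty. Of the 4404 sites with 5 or more wild-type tags, 1855 would have passed at the genome averages, 1582 at the rates 1 to 5 kb away, and 1700.5 as averaged over the windows 2 kb to either side, against the 1121 that did.

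The share of zeros fell with the wild-type count. Among sites with 0 input tags it was 57.0% (54.5 to 59.4) of 1615 sites with 5 wild-type tags, 44.2% (38.9 to 49.5) of 353 sites with 6, 35.5% (26.5 to 45.4) of 107 sites with 7 and 17.1% (7.15 to 32.1) of 41 sites with 8 or more. The knock-out counts of the other sites were 1 tag at 512 sites, 2 at 241, 3 at 102, 4 at 56, 5 at 25 and 6 or more at 59.

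**Figure D1:**
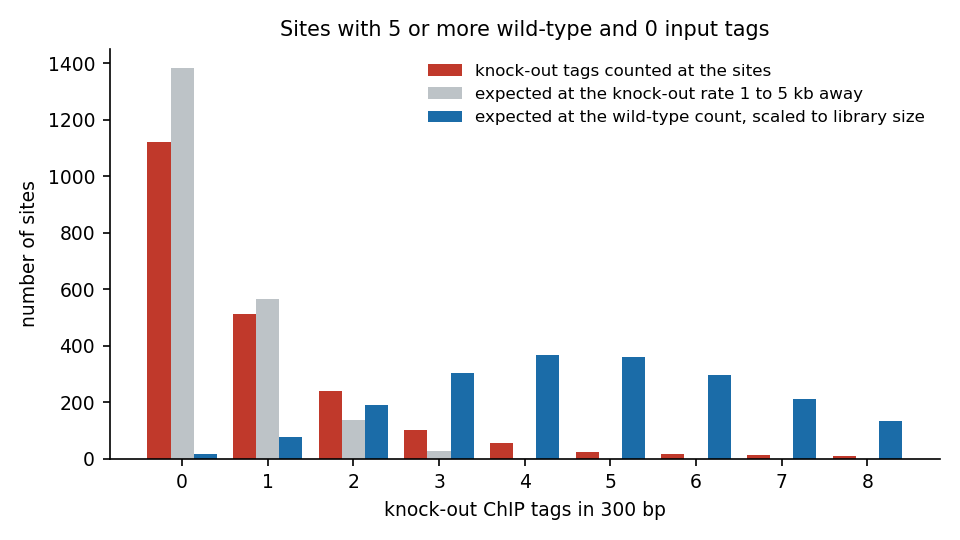
Number of sites (y axis) by knock-out ChIP tags in 300 bp (x axis) among the 2116 sites with 5 or more wild-type and 0 input tags. Red bars are the counted sites up to 8 knock-out tags, grey bars the number expected at the knock-out rate 1 to 5 kb away, and blue bars the number expected if the wild-type count, for which the sites were selected, were kept. At 0 tags the counted 1121 sites lie between 1381 and 16.6.

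Tags that face each other at the distance of a library fragment were present at most members and at most sites with knock-out tags. The gel slice of the library preparation held templates of 50 to 400 bp, and a template sequenced from either end gives a forward tag and, downstream, a reverse tag that faces it. Genome-wide, forward tags of the wild-type ChIP had 3.86 times as many facing reverse tags 150 to 400 bp downstream as at distances of 2 to 12 kb. The same value was 4.78 for the knock-out ChIP and 3.38 for input DNA. Pairs pointing away from each other, 150 to 400 bp apart, had values of 1.22, 1.27 and 2.39. Both ChIP libraries therefore had facing pairs well above diverging pairs, and the input had a smaller excess.

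**Figure D2:**
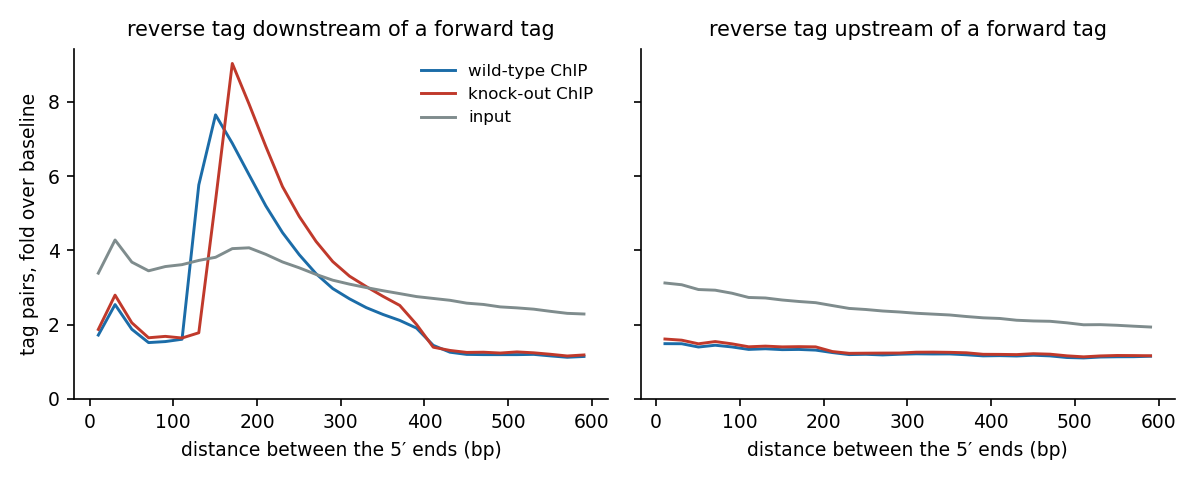
Tag pairs per distance as fold over the level at 2 to 12 kb (y axis) against the distance between their 5′ ends in bp (x axis), for reverse tags downstream of a forward tag (left) and upstream of it (right). In both ChIP libraries the facing pairs rise sharply between 100 and 200 bp and return near the diverging level after 400 bp.

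The 1121 members held 5861 wild-type tags from 17591 reads, and 1818 facing pairs of 50 to 400 bp could be formed within their windows. At least 1 such pair was present at 1076 members, and 1120 members had tags on both strands. Among the 995 sites with knock-out tags these counts were 950 and 981. The shares with a facing pair were 95.99% and 95.5%, compared with 62.0% of all deposited sites. With 5 or more tags required in 300 bp, such pairs are close to given by the selection. Counting each facing pair once, 553 members had 3 fragments, 469 had 4, 88 had 5 and 11 had 6 or more. Thus 99 of the 1121 members held 5 or more fragments. Among the 995 sites with knock-out tags, 397 had 3 fragments, 416 had 4, 133 had 5 and 49 had 6 or more. Facing pairs exceeded diverging pairs mainly from about 120 bp on. With pairs of 120 to 400 bp alone, a limit set after the data had been seen, 1664 pairs could be formed and 146 members held 5 or more fragments. The fragment counts therefore depend on the shortest pair allowed. Whether a facing pair comes from 1 template or from a pair of neighbouring templates was not tested.

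The member with the most tags lay in an intron of Fam189a1 (chr7:71983694-71983709), 17582 bp from the nearest TSS, with 10 wild-type tags from 25 reads. Of these, 7 were forward and 3 reverse, and 3 facing pairs left 7 fragments. The forward tags lay from 134 bp before the centre to 53 bp after it, and the reverse tags from 112 to 141 bp after it. The same window held 0 knock-out and 0 input tags. From 500 to 5000 bp away this site held 13 tags of the wild-type ChIP, 4 of the knock-out ChIP and 12 of the input, so the knock-out count was also the lowest there.

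Next came a site in an intron of Hjurp (chr1:90168322-90168337), 807 bp upstream of a TSS of that gene, which encodes the chaperone that brings the centromeric histone CENP-A to chromatin. It had 9 wild-type tags, 3 forward and 6 reverse, from 19 reads. Another 5 members had 8 wild-type tags. They lay in an intron of Eif3k (a subunit of translation initiation factor eIF3, with Actn4 as nearest TSS), near Cd300e, 298955 bp from the TSS of Klf5 (a zinc-finger transcription factor), 289 bp upstream of a TSS of Eif3f (another eIF3 subunit), and in an intron of Slc10a2 (the ileal bile acid transporter). By the tie rule the list of 10 closes with 3 sites of 7 tags, in an intron of Macrod2 (an ADP-ribose hydrolase), 3146 bp upstream of Gbp5 (an interferon-induced GTPase) and near Trim29. These 10 sites held 5 to 7 fragments each.

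Beyond the windows, the members did not stand out in the knock-out library. From 500 to 5000 bp they held 15484 tags of the wild-type ChIP, 14649 of the knock-out ChIP and 19751 of the input. Scaled to library size, the ratio of knock-out to wild-type tags was 1.01 (0.990 to 1.04), that of wild-type to input tags 0.964 (0.944 to 0.985), and that of knock-out to input tags 0.976 (0.956 to 0.997). The sites with knock-out tags had a knock-out to wild-type ratio of 1.00 (0.981 to 1.03) at the same distance.

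Next to the windows, up to 500 bp from the centre, the wild-type ChIP of the members still had 1.01 tags per 300 bp, 2.53 times its genome average, and the knock-out ChIP had 0.397, 1.06 times its own. At the sites with knock-out tags these values were 3.07 and 2.71 times. This zone borders the window that the rule used, and how far the rule sets its values was not tested. Up to 400 bp from the members, 1868 wild-type tags pointed to the site and 455 away from it. In the knock-out ChIP 204 tags pointed to the site and 484 away, against 404 per strand at the rate 1 to 5 kb away. The input had 561 and 566. Knock-out tags that could face a tag inside the empty window were thus fewer than at a distance, and those pointing away were more.

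**Figure D3:**
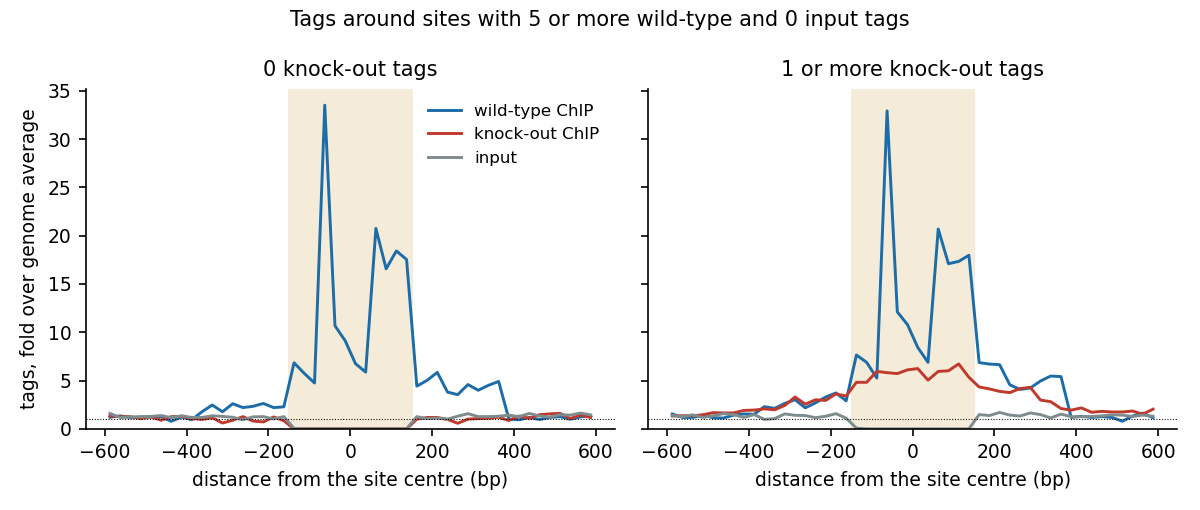
Tags in steps of 25 bp as fold over each library's genome average (y axis) by distance from the site centre in bp (x axis), for the 1121 members (left) and the 995 sites with knock-out tags (right). The shaded band is the 300 bp window of the rule, in which the knock-out and input lines of the members are at 0 by construction, apart from the input at the left edge, where the first base of the step lies outside the window. Outside it the knock-out line of the members runs near the dotted line of the genome average.

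The palindrome was rarer at the members than at the sites with knock-out tags. With at most 2 mismatches it was found in 31 of 1121 member windows (2.77%, 1.89 to 3.90) and in 98 of 995 windows with knock-out tags (9.85%, 8.07 to 11.9), and the intervals did not overlap. The share rose with the knock-out count, from 6.64% (4.64 to 9.16) of the sites with 1 tag to 8.71% (5.47 to 13.0) with 2 and 17.8% (13.2 to 23.2) with 3 or more. Of all 38625 deposited sites 3.14% held a match, and of 7978600 windows of 300 bp tiled over the genome 1.23%. The members thus lay above the genome tiles and close to the deposited list as a whole. Only 11.4% of that list had 5 or more wild-type tags, as the members do. Of these 4404 sites, which include the members, 6.43% (5.72 to 7.19) held a match, above the members without overlap. A match in the window 2 kb to the left, in that 2 kb to the right, or in both was held by 24 members (2.14%). This counts a pair of windows per site, so it is not the share of single windows given above. Counted in this way it was 2.64% for all deposited sites.

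The difference was also present between sites of equal wild-type count. Among sites with exactly 5 wild-type tags, 2.93% (1.94 to 4.24) of the members and 7.05% (5.26 to 9.21) of the sites with knock-out tags held a match. Members with 5 or more fragments had a match at 5 of 99 sites (5.05%, 1.66 to 11.4), against 28 of 182 (15.4%, 10.5 to 21.5) of the sites with knock-out tags, and these intervals overlapped. With facing pairs of 120 to 400 bp alone the counts were 6 of 146 (4.11%, 1.52 to 8.73) and 39 of 243 (16.05%, 11.7 to 21.3), without overlap. GC content moved with the groups, with a median of 40.7% in the member windows, 43.0% in those with knock-out tags and 46.2% in those with 3 or more. Within GC strata the shares were 1.75% against 6.09% under 40% GC, 2.45% against 10.5% from 40 to under 45%, and 4.66% against 12.6% at 45% or more, and in each stratum the intervals of both groups did not overlap.

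With at most 1 mismatch, 6 members (0.535%, 0.197 to 1.16) and 31 sites with knock-out tags (3.12%, 2.13 to 4.39) held the palindrome. All deposited sites were at 0.551%, close to the members. The 4404 sites with 5 or more wild-type tags were at 1.43% (1.10 to 1.83), an interval that overlapped that of the members. The 6-base half-site TTGGCA, which is contained in a complete palindrome, was found on either strand at 206 members (18.4%, 16.1 to 20.8) and at 249 sites with knock-out tags (25%, 22.4 to 27.8). For the half-site, all deposited sites were at 18.7%, again close to the members. The 4404 sites were at 22.6% (21.4 to 23.9), above the interval of the members. Of the 31 member matches, 16 lay within 75 bp of the centre, compared with 70 of the 98 matches at sites with knock-out tags. That stretch covers about as many positions of the window as lie outside it. Matches spread evenly over the window would thus be split about equally. Whether the 31 member matches, which are few, were so spread was not tested. Mismatches fell at each of the 6 positions of a half-site, from 5 at position 3 to 12 at positions 1 and 5.

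**Figure D4:**
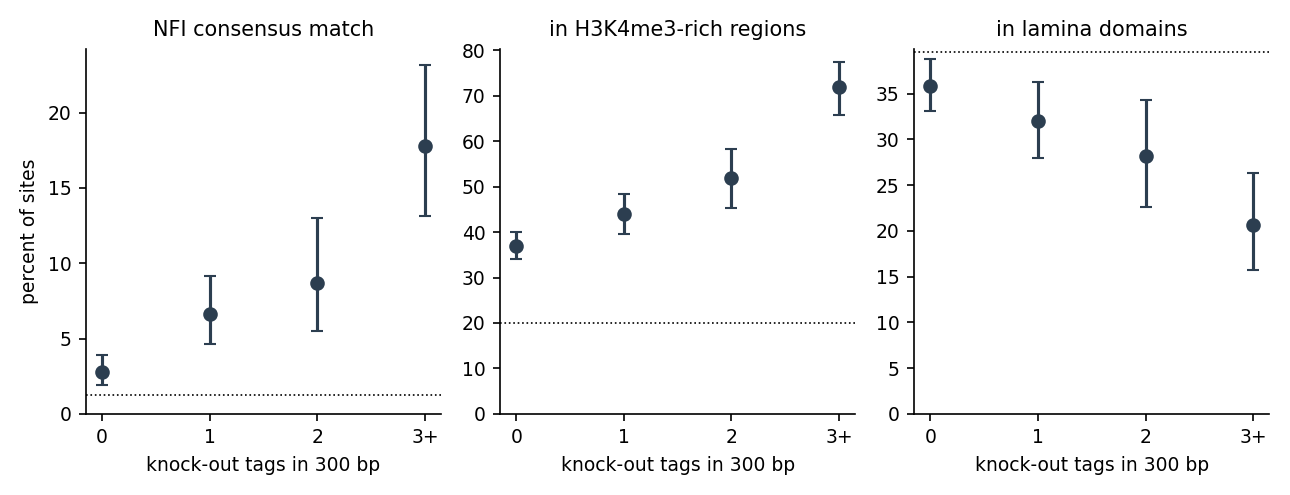
Percent of sites (y axis) with a palindrome match of at most 2 mismatches (left), in H3K4me3-rich regions (middle) and in lamina domains (right), by knock-out tags in 300 bp (x axis). Points are shares with exact 95% intervals of 1121, 512, 241 and 242 sites, and dotted lines give the share of genome tiles with a match and of known bases in each kind of region. The first 2 shares rise with the knock-out count and the third falls.

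Chromatin regions were read from the boundary files of the authors, who partitioned histone methylation data of mouse embryonic fibroblasts into rich and poor regions. H3K4me3 marks active promoters, H3K36me3 transcribed gene bodies and H3K27me3 Polycomb-repressed chromatin. The lamina domains, which lie at the nuclear periphery and are mostly gene-poor, were measured in human Tig3 fibroblasts and converted to mm9 by the authors. The H3K4me3-rich regions are broad, with a median length of 17154 bp and 19.9% of the known bases, so a site inside one need not be at a promoter.

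The members lay less often in H3K4me3-rich regions. They contained 415 members (37.0%, 34.2 to 39.9), 43.9% (39.6 to 48.4) of the sites with 1 knock-out tag, 51.9% (45.4 to 58.3) with 2 and 71.9% (65.8 to 77.5) with 3 or more. Of all deposited sites 43.5% lay there. At exactly 5 wild-type tags the shares were 35.9% for members and 48.9% for sites with knock-out tags. In the GC strata the members had 25.9%, 39.5% and 52.5% and the sites with knock-out tags 39.4%, 54.4% and 62.7%. The intervals of both groups did not overlap under 40% GC and from 40 to under 45%, and they overlapped at 45% or more. The wild-type tags of the whole genome were at 27.1% in these regions, the knock-out tags at 27.5% and the input tags at 31.7%.

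H3K27me3-rich regions held 586 members (52.3%, 49.3 to 55.2), 57.6% (54.4 to 60.7) of the sites with knock-out tags and 54.5% of all deposited sites. H3K36me3-rich regions held 361 members (32.2%, 29.5 to 35), 37.3% (34.3 to 40.4) of the sites with knock-out tags and 36% (35.5 to 36.5) of all deposited sites. H3K27me3-rich regions take up 41.1% of the known bases and held 46.8% of all wild-type tags and 51.4% of all input tags. For H3K36me3-rich regions these values were 20.4%, 26.1% and 28.8%. Over all sites the intervals of members and sites with knock-out tags overlapped for each of these marks. The H3K36me3 share of the members lay below that of all deposited sites, which include sites with input tags. Of the sites with 5 or more wild-type tags and with input tags, 45.8% (43.7 to 47.8) lay in H3K36me3-rich regions. At 3 or more knock-out tags the shares were 64.0% (57.7 to 70.1) for H3K27me3 and 42.1% (35.9 to 48.6) for H3K36me3, both above the members without overlap. Under 40% GC, H3K36me3-rich regions held 20.7% (17.2 to 24.4) of the members and 33% (28.1 to 38.3) of the sites with knock-out tags, without overlap. From 40 to under 45% GC the shares were 33.2% (27.8 to 39.0) and 31.6% (25.8 to 38.0). At 45% GC or more they were 49.7% (44.1 to 55.3) and 44.1% (39.2 to 49.0). In both of these strata the order was the opposite, and the intervals overlapped. For H3K27me3 the intervals of both groups overlapped in each GC stratum. Behind Hjurp and the Eif3k intron, the rule for ties names a site in an intron of Nek6 (a mitotic kinase). It was picked among several H3K36me3-rich members with 7 wild-type tags, which included a site in an intron of Nrg1. In none of the 3 kinds of rich region were 301 members (26.9%, 24.3 to 29.5), compared with 16% (13.8 to 18.4) of the sites with knock-out tags and 9.09% (5.79 to 13.4) of those with 3 or more. All deposited sites lay between, at 22.2% (21.8 to 22.6). Under 40% GC this share was 44.1% (39.7 to 48.5) for members and 30.1% (25.3 to 35.3) for sites with knock-out tags, without overlap. From 40 to under 45% GC the shares were 20.6% and 13.1%, and at 45% or more 4.97% and 5.81%. In both of these strata the intervals overlapped.

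Lamina domains held 402 members (35.9%, 33 to 38.7), 28.3% (25.6 to 31.3) of the sites with knock-out tags and 20.7% (15.7 to 26.3) of those with 3 or more. Of all deposited sites 31.9% (31.5 to 32.4) lay there, and the domains take up 39.6% of the known bases. At exactly 5 wild-type tags the shares were 36% (32.9 to 39.2) for members and 30.1% (26.7 to 33.6) for sites with knock-out tags, and these intervals overlapped. With 7 or more wild-type tags the members' share was 22.2% (11.2 to 37.1) of 45 sites. In lamina domains without any of the 3 marks lay 190 members (16.9%, 14.8 to 19.3), compared with 9.05% (7.34 to 11.0) of the sites with knock-out tags. All deposited sites lay between, at 13.0% (12.7 to 13.3). In the GC strata the lamina shares were 44.4%, 36.4% and 21.7% for members and 36.5%, 32.5% and 19.1% for sites with knock-out tags. In each stratum the intervals of both groups overlapped, so the difference for lamina domains as a whole was not resolved there at this number of sites. For lamina domains without any of the 3 marks, the shares under 40% GC were 27.7% (23.8 to 31.8) and 18% (14.1 to 22.4), without overlap, and at higher GC the intervals overlapped. The Fam189a1 site had the most wild-type tags of the members in lamina domains. Several other members there had 7 tags each. Among these the rule for ties names a pair of intergenic sites. They lay 258382 bp from the TSS of Sox2 (a transcription factor of pluripotent and neural cells) and 815882 bp from that of Gm597.

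Over all sites, the shares in genes and upstream of them had overlapping intervals in both groups. Of the members, 559 (49.9%, 46.9 to 52.8) lay in a protein-coding gene, compared with 50.5% (47.3 to 53.6) of the sites with knock-out tags. All deposited sites were level with both groups, at 51.1% (50.6 to 51.6). At 45% GC or more the shares were 61.8% (56.3 to 67.1) and 49.6% (44.7 to 54.6), without overlap. Under 40% GC the order was the opposite, with 42.7% (38.4 to 47.1) and 51.3% (45.9 to 56.7), and the intervals overlapped. The members were placed in introns for 507 members, coding exons for 17, UTRs for 26 and other exons for 9. Within 5 kb upstream of a TSS lay 98 members (8.74%, 7.15 to 10.6) and 9.65% (7.88 to 11.7) of the sites with knock-out tags, and within 1 kb 36 members (3.21%) and 4.12%. Of all deposited sites 11.4% (11.1 to 11.8) lay within 5 kb upstream, above the interval of the members. Within 1 kb it was 5.07% (4.86 to 5.30), also above the members' interval of 2.26 to 4.42. The order of the 5 kb upstream shares changed between GC strata. Under 40% GC they were 4.48% for members and 8.41% for sites with knock-out tags, and from 40 to under 45% they were 10.5% and 4.22%. At 45% or more they were 14.0% and 13.8%, and the intervals overlapped in each stratum. Protein-coding genes and their 5 kb upstream regions take up 39.6% and 7.17% of the known bases. Outside both lay 520 members (46.4%). The median distance to the nearest TSS was 37949 bp for members and 39433 bp for sites with knock-out tags. Sites with input tags, which the rule leaves out, were upstream of a TSS more often, at 19% (17.4 to 20.7).

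Of the 1121 members, 10 (0.892%) lay within 10 kb of another member, compared with 16 of the 995 sites with knock-out tags (1.61%) within 10 kb of another such site. So few sites leave large distances in either group, and the median distance from a member to the next was 720443 bp. By chromosome, the density ran from 33.6 per 100 Mb on chromosome 17 to 57.1 on chromosome 19. The members made up 16.2% of the sites with 5 or more wild-type tags on chromosome 11 and 31% on chromosome 12, the lowest and the highest of the 19. At 969 members every possible 32-base alignment in the window was unique in the genome, and 38 had fewer than 90% unique, so alignment could return tags at nearly all positions of most windows.

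Within 1 kb upstream of a TSS, the 10 members with the most wild-type tags had 5 to 9. Besides Hjurp and Eif3f, they lay 187 bp upstream of a TSS of Nav3, 353 bp upstream of Nr1d1 (the circadian repressor REV-ERB alpha), 382 bp upstream of Nfkb1 (the p105 and p50 subunit of NF-kappaB), 999 bp upstream of Nfkbid (a nuclear IkappaB protein), 509 bp upstream of Itgb3bp (a centromere protein) and 73 bp upstream of Orc5 (a subunit of the origin recognition complex). The others were 727 bp upstream of 0610037L13Rik and 184 bp upstream of E330013P04Rik. The sites at Nfkb1, Itgb3bp and Orc5 had 5 tags each. They were picked by the rule for ties, as 29 of all 36 members within 1 kb upstream had exactly 5. Of the 10, 9 lay in H3K4me3-rich regions and the Nav3 site did not. Within 1 kb upstream of a TSS this was so for 32 of all 36 members and for 34 of the 41 sites with knock-out tags.

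A member in the body or 5 kb upstream was found for 592 of 21281 protein-coding genes (2.78%), of which 556 held 1 member, 34 held 2 and 2 held 3 or more. Genes with a member were long, with a median of 107.61 kb, compared with 15.63 kb for all genes. Smad3, which encodes a signal transducer of the TGF-beta receptors, held 4 members among its 10 deposited sites. The gene is described because it held the most members, so its counts are no test. Over the whole list, members were 2.90% of deposited sites and 25.5% of those with 5 or more wild-type tags. In Smad3 they were all 4 of the sites with 5 or more, at chr9:63530791-63530806, chr9:63557998-63558013, chr9:63591131-63591146 and chr9:63603541-63603556. Each had 5 wild-type tags, from 14, 13, 8 and 19 reads in that order, and 3, 4, 3 and 3 fragments. The third lay 66 bp upstream of a TSS, and all 4 lay in H3K4me3- and H3K36me3-rich regions. None held the palindrome with at most 2 mismatches.

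The other gene counted with 3 members was Fgfr2, a receptor of fibroblast growth factors. Its annotated span of 3009 kb in the annotation used takes in neighbouring genes, and the nearest TSS of these members were those of Htra1, Hmx2 and Gpr26, so they are not assigned to Fgfr2 here.

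Gene groups were counted beside the 2.78% of all protein-coding genes, and with 0 to 17 genes each the shares were not tested. Of 28 TGF-beta and BMP genes 3 held a member, Smad3, Tgfbr1 (the type I receptor, a site in a coding exon with 6 wild-type tags) and Tgfbr3 (the co-receptor betaglycan, 5 tags). Of 23 PDGF, FGF and EGF genes 3 were counted, Nrg1 (an ErbB ligand, 7 tags), Erbb4 (an ErbB receptor, 5 tags) and the Fgfr2 span. Among 32 mesenchymal transcription factors 4 held a member, Foxp1 with 6 tags and Runx1, Tcf12 and Zeb1 with 5 each. The Runx1 site lay in a UTR, 466 bp upstream of another of its TSS. Genes of these lists are long, with medians of 70.6, 90.7 and 136 kb in the order given. Their bodies held 2.34, 0.703 and 0.636 members per Mb, compared with 0.576 for all protein-coding genes. Without the Fgfr2 span the second list held 0.487 per Mb, below all genes, and without Smad3 the first held 0.816.

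Among 18 cytoskeletal genes 3 held a member with 5 tags each, Actg1 (gamma-actin, within 5 kb upstream), Myh10 (a non-muscle myosin heavy chain) and Palld (palladin, an actin-associated protein). The site counted for Actg1 lay in an intron of 0610009L18Rik, whose TSS was the nearest, at 956 bp. Of 16 collagens, Col12a1 held a member, and of 23 integrin and adhesion genes, Ptk2 (focal adhesion kinase), each with 5 tags. Of 27 WNT genes, Lrp6 (a WNT co-receptor) held a member with 6 tags. Among the 4 NFI genes, Nfia held 1 with 5 tags among 19 deposited sites. Of 15 keratinocyte and epithelial genes, Trp63 held 1 with 5 tags. Per Mb of gene body these lists held 1.51 members for cytoskeletal genes, 0.617 for collagens, 0.273 for integrins and adhesion, 0.676 for WNT, 1.02 for NFI and 1.55 for keratinocyte genes, each from 1 or 2 members. No member was counted at 24 matrix glycoprotein and remodelling genes, 20 cell cycle genes or 11 haematopoietic genes.

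The list with the most genes was that of neuronal adhesion, synapse and guidance, with 17 of 40. These genes are long, with a median of 885 kb, and their bodies held 0.577 members per Mb, compared with 0.576 for all protein-coding genes. Per length the list was thus level with all genes. The highest counts were 7 wild-type tags at Macrod2, whose known product is not an adhesion or synapse protein although the list holds it, and 6 at Dscam (a cell adhesion molecule) and at a pair of sites in Csmd1.

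Of the 87 miRNA regions that the authors listed with an in vivo site, 4 held a member, each in the transcribed region. These regions held 242 deposited sites, of which the 4 members were 1.65%, compared with 2.90% of all deposited sites. They were those of mir-135b and mir-26a-2, where the member was the only deposited site on chromosomes 1 to 19, mir-708 with 3 deposited sites, and mir-218-2 with 22 over 495 kb.

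To see how often sites of each library are empty in the other libraries, sites were called anew in each. The rule was 5 or more tags in 300 bp around a tag, with sites more than 300 bp apart. The deposited list, the tag shift and the repeat filter were not used, so these sites are no direct counterparts of the members. The wild-type ChIP gave 13112 sites, of which 3830 (29.2%) had 0 tags in both other libraries. Of these 3830 sites, 2377 lay within 300 bp of a deposited site. The knock-out ChIP gave 9960 sites, with 2278 (22.9%) empty in the others, and input DNA gave 30040, with 10533 (35.1%). Sites without tags in the other libraries were thus present in each direction, and the libraries differ in depth, with 3186944, 2978316 and 3920580 tags in the order given.

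The palindrome followed the same order in each library. Among wild-type sites it was found at 2.58% (2.11 to 3.14) of those without tags in the other libraries and at 5.56% (5.10 to 6.04) of the rest. Among knock-out sites the shares were 3.07% (2.40 to 3.87) and 7.00% (6.44 to 7.60), and among input sites 0.475% (0.353 to 0.625) and 0.877% (0.751 to 1.02). The sites found in the wild-type ChIP alone and those found in the knock-out ChIP alone had overlapping intervals. Of these, 30.9% (29.4 to 32.4) and 37.4% (35.5 to 39.5) lay in H3K4me3-rich regions, and 36.1% and 32% in lamina domains. Sites found in the input alone were at 76.7% in H3K4me3-rich regions.

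**Figure D5:**
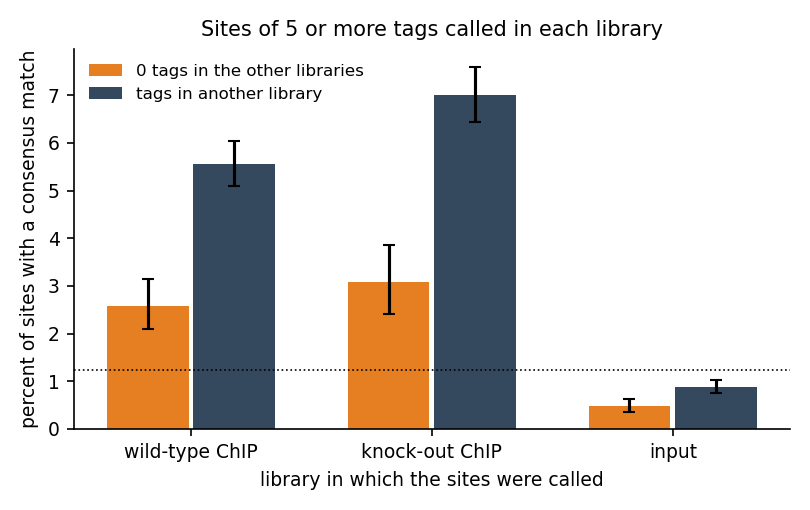
Percent of sites with a palindrome match of at most 2 mismatches (y axis, with exact 95% intervals) among sites of 5 or more tags called in each library (x axis), for those with 0 tags in both other libraries and the rest. In each library the sites without tags elsewhere have the lower share, 2.58% against 5.56% in the wild-type ChIP and 3.07% against 7.00% in the knock-out ChIP. The dotted line is the 1.23% of genome tiles.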

How the data were processed

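ChIP-Seq tags of 3 libraries were counted. The authors mapped reads of 35 bp (ChIP) and 36 bp (input) to mm9 with ELAND and deposited every read without normalization, so the values are counts of deposited reads. Wild-type, knock-out and input libraries held 14358325, 16330049 and 12029975 reads, of which 9783430, 10820536 and 5421581 mapped uniquely, with 2.92, 3.45 and 1.32 unique reads per tag. The 18 PCR cycles carried no molecular identifiers.

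On the reverse strand the first 32 bases of chromosome 19 reads were identical to the reference (NCBI build 37, the same assembly as mm9) for 99.4% to 99.96% of reads, compared with 0% for 33 bases. Positions are therefore left ends of 32-base alignments, and reverse tags were placed at the other end. The authors' placement of reverse tags is not given in the sources used here and may differ, since deposited centres lie 75 bp from a forward tag at 57.7% and 71 bp from a reverse tag at 42.9% of the sites.

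The authors made the site list with ChIP-peak (window 300 bp, vicinity range 300 bp, threshold 5 tags, count cut-off 1, repeat filter, tag shift 75 bp). The repeat filter was not repeated. TSS are those of protein-coding genes in GENCODE vM1. Expected zeros are Poisson probabilities, which take tags as independent. Members, gene lists and rules were chosen with earlier results of these data known. Named are the 10 members with the most wild-type tags, those with at most 1 mismatch, the 10 with the most tags within 1 kb upstream of a TSS, genes with 3 or more members, up to 4 genes per list, and the top 3 per kind of region. Ties in wild-type tags were broken by the number of tags near the site centre, then by position. Counting was tested on simulated tags. Software comprised matplotlib 3.10.9, Numba 0.67.0, pandas 2.3.3, SciPy 1.17.1, NumPy 2.4.6 and Python 3.11.15.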

Additional observations from a re-analysis of the deposited data

How the results depend on the processing

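No paired analysis was possible because each condition had 1 library. Of 96 alternative values, 49 stayed within the interval of the value reported (for counts, within 1.5 times) and 47 did not. The causes were not tested. The number of members was most dependent on the counting. It was 45 with 7 or more wild-type tags, 3779 in a window of 600 bp, 2000 with tags shifted by 75 bp and 10876 with every read counted. With facing tags counted once, which was added after the data had been seen, it was 99, and 146 when only facing tags at least 120 bp apart were so counted. The share of sites with 0 knock-out tags was 30.4%, 45.3%, 59.3%, 60.7%, 35.2% and 37.53% in the same order. When reverse tags were placed by the full read length, also added later, 1080 of the 1121 members remained.

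The share of members with a match was 1.85% with the 600 bp window, 5.05% with facing tags counted once, 0.535% with at most 1 mismatch and 1.43% within 75 bp of the centre. The share within 5 kb upstream of a TSS was 13.3% with 7 or more tags, 6.69% with the 600 bp window and 5.44% from the outermost TSS. It was 3.21% for 1 kb and 13.9% for 10 kb. The share in a gene was 46.7% with 7 or more tags and 46.5% with facing tags counted once.

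With facing tags from 120 bp counted once, the shares were 4.11% with a match, 45.9% for H3K4me3, 57.5% for H3K27me3 and 37.0% for H3K36me3. The H3K4me3 share was 28.6% with the 600 bp window, 32.4% with every read and 42.4% with facing tags counted once. The H3K27me3 share was 60.0% with 7 or more tags, 46.9% with the 600 bp window, 49.1% with shifted tags, 48.6% with every read and 56.6% with facing tags counted once. The H3K36me3 share was 20% with 7 or more tags and 29.0% with the 600 bp window, and the lamina share 22.2% and 39.3%. The knock-out to wild-type ratio 500 to 5000 bp away was 0.986 with 7 or more tags, 0.981 with the 600 bp window and 0.989 with shifted tags. With 7 or more tags, sites without tags in the other libraries numbered 173 and 163 for the wild-type and knock-out ChIP and 5704 for input DNA, and with shifted tags 8630 and 7267 in the ChIP libraries. Only 45 members remain at 7 tags, so their shares are the least precise. Depth limits each single site: a count of 0 knock-out tags allows up to 3 if tags fall independently, and more where facing tags share a template.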
